A study of Mus musculus with 8 samples.

Results

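The major histocompatibility complex (MHC) genes H2-D1, H2-L, H2-Q1, H2-Q3, H2-Q6, H2-T24 and H2-DMa and the antisense lncRNA AK017289 were described in brainstem RNA from DBA/1 and C57BL/6 mice. The 8 genes were measured by 9 of the 60804 array probes in the authors' table, because H2-D1 had a coding and a noncoding probe. They were chosen by measured values, namely a level at least 2-fold higher in DBA/1 mice (unadjusted p under 0.05), and for the spread of the MHC genes among mice. The difference between strains and the spread among the DBA/1 mice are therefore given as a description, with no test. The samples were 4 DBA/1 mice, an inbred strain prone to audiogenic seizures, and 4 C57BL/6 mice as the control strain. All were male, 5 weeks old and untreated, and each array held the whole brainstem of 1 mouse killed under isoflurane. The arrayed mice had not been tested for seizures. Each strain came as 1 commercial line, DBA/1JNCrlj or C57BL/6JNifdc, so strain and line cannot be told apart, and mice were kept 4 to a cage, with the cages of the arrayed mice not given in the labels.

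MHC class I molecules are a polymorphic heavy chain paired with beta-2 microglobulin, and they carry peptides from inside the cell to CD8+ T cells. H2-D1 and H2-L are classical heavy chains of the mouse D region, while the Q and T regions hold mostly nonclassical relatives, some of them pseudogenes. Class II molecules show peptides from taken-up protein to CD4+ T cells, and H2-DMa encodes a chain of the H2-DM molecule that helps class II exchange its peptide. In the brain, class I RNA is found in endothelium, microglia and some neurons, and interferons induce it in many cell types.

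The probes lay on chromosome 17. On GRCm38, counted from 1, the listed H2-D1 transcript (NM_010380) ran from 35263094 to 35267497 on the plus strand and the H2-L transcript (NM_001267808) from 35263123 to 35266730, inside the interval of H2-D1. The noncoding H2-D1 transcript (ENSMUST00000174325) lay from 35265477 to 35266319 on the same strand and was listed as sense-overlapping an exon. AK017289 ran on the minus strand from 35262269 to 35263604, listed as a natural antisense RNA, and overlapped the H2-D1 gene by 511 bases at its start. H2-Q1 began 57.3 kb, H2-Q3 95.9 kb, H2-Q6 162 kb and H2-T24 743 kb to the right of the H2-D1 start, and the H2-DMa transcript began at -1140.3 kb, to its left. The probes for H2-Q1 and H2-Q3 were those of noncoding transcripts, sense-overlapping an exon and intergenic, respectively, and the gene table of GRCm38.p6 gives H2-Q3 as a pseudogene.

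Class I genes are alike in sequence, so the letters of some probes are given. The probes below are printed as listed, 5′ to 3′, with no part in capitals, because the values of H2-D1, H2-L, H2-Q1 and AK017289 carry most of what follows.
H2-D1 coding: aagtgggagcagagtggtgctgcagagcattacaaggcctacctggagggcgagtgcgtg
H2-D1 noncoding: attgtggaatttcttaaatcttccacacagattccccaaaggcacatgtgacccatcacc
H2-L: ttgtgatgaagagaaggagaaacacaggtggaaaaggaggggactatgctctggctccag
H2-Q1: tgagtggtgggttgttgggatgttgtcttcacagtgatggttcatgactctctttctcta
AK017289: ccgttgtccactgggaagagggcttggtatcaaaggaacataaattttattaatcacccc
The 9 probes are each 60 bases long, and in the 36 pairs of them the longest run of letters shared on either strand was 4 to 8 bases. The probes were thus different sequences and not copies of each other. They were not compared with the transcripts of related genes, so what else each probe could bind was not tested. The supplier noted cross-hybridization for 1 of them, the H2-L probe, which can also bind the H2-D1 transcript NM_010380. The gene table of GRCm38.p6 gave no gene for H2-L, and 3608 bases of the listed H2-L interval overlapped H2-D1. The probe is therefore not taken as a reading of H2-L apart from H2-D1 in either strain, and in the counts below it may repeat H2-D1.

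The array headers gave a slide row and column for each of the 8 arrays, with C57BL/6 in row 1 and DBA/1 in row 2. Slide row and strain therefore cannot be told apart. Whether all arrays shared a slide was not established here. Before normalization, arrays of C57BL/6 mice were brighter, with 75th percentiles of 73.7 to 112 units against 50.3 to 76.4 units for DBA/1 mice. Probes well above background numbered 33045 to 36162 and 29301 to 33350, respectively. Values are log2 of the quantile-normalized intensity, and 33179 probes were well above background on enough arrays to be compared, all 9 MHC probes among them. Of these 33179 probes, 350 (1.05%) were at least 2-fold higher in DBA/1 mice, with limma's unadjusted p under 0.05, a share that includes the 9 MHC probes by their choice. Every MHC probe was well above background on all 4 DBA/1 arrays, and 8 of the 9 were on all 8 arrays.

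The coding H2-D1 probe read a classical class I heavy chain. It gave 7.46, 7.20, 8.98 and 9.02 in DBA/1 replicates 1 to 4 and 6.68, 7.25, 6.58 and 6.79 in C57BL/6 replicates 1 to 4. The lowest DBA/1 mouse lay below the highest C57BL/6 mouse, so the strains overlapped, while DBA/1 replicates 3 and 4 stood far above all others. The means were 8.17 ± 0.97 (SD, n = 4) and 6.83 ± 0.30 (SD, n = 4), a difference of 1.34 on the log2 scale (standard error 0.39) or 2.54-fold.

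The noncoding H2-D1 probe, inside the same gene, gave 7.55, 7.50, 9.41 and 9.13 in the DBA/1 mice and 6.80, 7.46, 6.57 and 5.91 in the C57BL/6 mice, in the order of their replicates. DBA/1 replicates 1 and 2 sat at the level of C57BL/6 replicate 2, and the strains were parted by 0.03. The means were 8.40 ± 1.02 (SD, n = 4) and 6.68 ± 0.64 (SD, n = 4), a difference of 1.71 (standard error 0.46). H2-D1 RNA was thus high in the same DBA/1 mice by both probes.

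The H2-L probe, listed for another classical heavy chain, may read H2-D1 in part or in whole. It gave 11.03, 10.76 and 12.13 in DBA/1 replicates 1, 2 and 4. The spot of DBA/1 replicate 3 was an outlier spot by the scanner's criteria and was left out. It read 12.66 where it was kept. The C57BL/6 mice gave 10.21, 10.94, 10.20 and 9.68. The strains overlapped, with C57BL/6 replicate 2 above DBA/1 replicate 2. The means were 11.31 ± 0.73 (SD, n = 3) and 10.26 ± 0.52 (SD, n = 4), and the difference of 1.05 (standard error 0.36), or 2.07-fold, was the smallest of the 9 and lay just inside the 2-fold limit of the choice. It was 0.64 without DBA/1 replicate 4 and 1.51 with the outlier spot kept. No H2 probe just outside the limit could be named, since names cover only listed probes.

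Among the Q region genes, which lie next to the D region, the noncoding H2-Q1 probe varied the most. It gave 7.89, 7.81, 10.32 and 10.18 in the DBA/1 mice, a range of 2.51 or 5.70-fold, and 6.74, 7.07, 7.12 and 7.003 in the C57BL/6 mice, a range of 0.39. The C57BL/6 mice were thus close together, the DBA/1 mice fell into a low and a high pair, and even the low pair lay above all C57BL/6 mice, by 0.68. The means were 9.05 ± 1.39 (SD, n = 4) and 6.98 ± 0.17 (SD, n = 4), a difference of 2.06 (standard error 0.52) or 4.18-fold.

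The H2-Q3 probe, on the noncoding transcript of a pseudogene, gave 8.69, 8.57, 9.95 and 9.74 in the DBA/1 mice and 7.84, 8.39, 7.87 and 7.72 in the C57BL/6 mice. The strains did not overlap, and the order of the DBA/1 mice was that of H2-Q1. The difference was 1.29 (standard error 0.31), between means of 9.24 ± 0.71 (SD, n = 4) and 7.95 ± 0.30 (SD, n = 4).

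The H2-Q6 probe, on the coding transcript of a Q region class I gene, gave 8.74, 10.58 and 10.20 in DBA/1 replicates 1, 3 and 4, and 8.26, 8.66, 8.06 and 8.36 in the C57BL/6 mice. The spot of DBA/1 replicate 2 was left out as an outlier spot and read 8.99 where it was kept. DBA/1 replicates 3 and 4 were again the high mice, and DBA/1 replicate 1 lay 0.08 above the highest C57BL/6 mouse. The difference was 1.51 (standard error 0.38), between means of 9.84 ± 0.97 (SD, n = 3) and 8.34 ± 0.25 (SD, n = 4).

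The H2-T24 probe, on the coding transcript of a T region gene on the minus strand, gave 4.50, 4.22, 5.90 and 5.68 in the DBA/1 mice and 3.57, 3.89, 3.48 and 4.04 in the C57BL/6 mice. The strains did not overlap, and DBA/1 replicate 2 lay 0.18 above C57BL/6 replicate 4. The difference was 1.33 (standard error 0.35), between means of 5.07 ± 0.84 (SD, n = 4) and 3.74 ± 0.27 (SD, n = 4). Its unnormalized intensities were 12.3 to 53.6 units, which made it a dim probe.

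H2-DMa, the class II member, gave 5.04, 4.79, 5.80 and 5.52 in the DBA/1 mice and 3.98, 4.13, 4.51 and 4.11 in the C57BL/6 mice. The strains did not overlap, the order of the DBA/1 mice was that of H2-Q1 and H2-T24, and the step between the low and the high pair was smaller. The difference was 1.104 (standard error 0.23), between means of 5.29 ± 0.46 (SD, n = 4) and 4.18 ± 0.23 (SD, n = 4). Its unnormalized intensities were 16.2 to 48.1 units.

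AK017289, the antisense lncRNA across the H2-D1 start, gave 5.96, 5.57, 5.66 and 6.10 in the DBA/1 mice and 3.94, 3.76, 2.86 and 2.66 in the C57BL/6 mice. Here the 4 DBA/1 mice were close together, the C57BL/6 mice were spread, and the strains were parted by 1.63. The difference of 2.52 (standard error 0.29), or 5.73-fold, between means of 5.82 ± 0.25 (SD, n = 4) and 3.30 ± 0.64 (SD, n = 4), was the largest of the 9 probes at this setting but not under a normexp background correction with an offset of 50, where it was 0.81 and lay below 6 others, up to 1.81 for H2-Q1. The probe was well above background on 2 of the 4 C57BL/6 arrays, so its difference depends on dim values, with unnormalized intensities of 8.22 to 15.9 units there against 33.3 to 71.9 units in the DBA/1 mice.

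**Figure D1:**
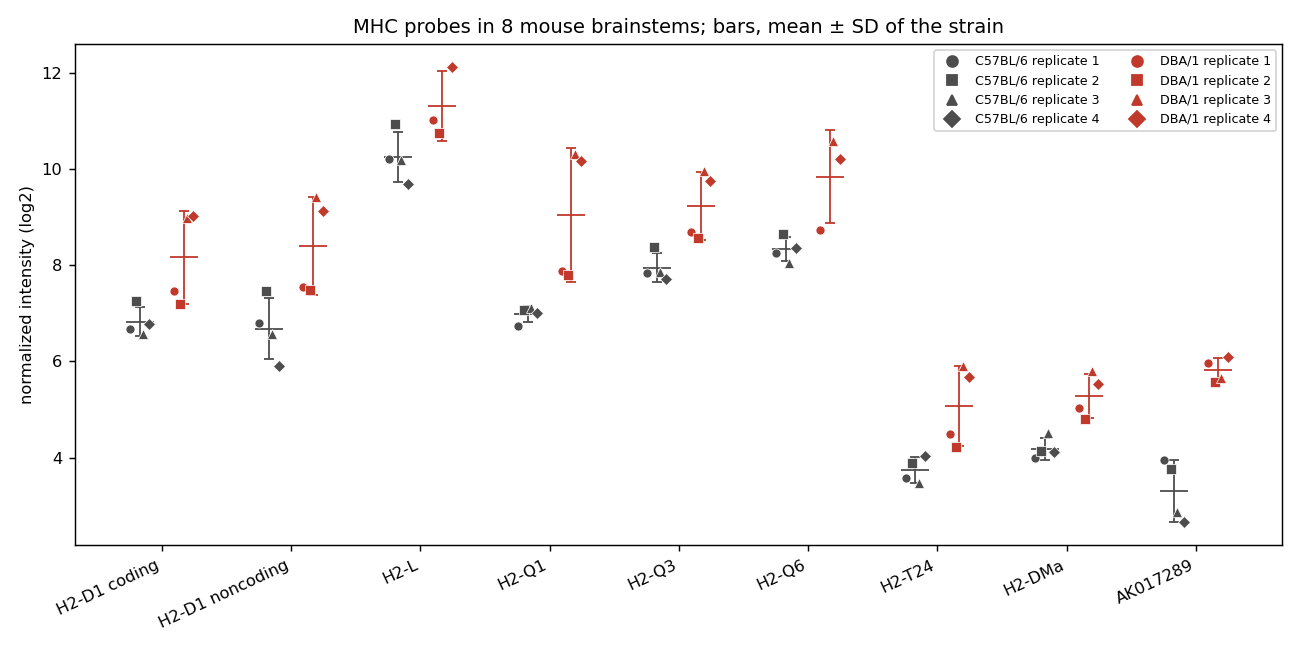
Normalized intensity (log2, vertical axis) of the 9 MHC probes in each of the 8 mice, C57BL/6 in grey and DBA/1 in red, with a marker shape for each replicate and bars for the mean ± SD of the strain. DBA/1 replicates 3 and 4 lie above replicates 1 and 2 in all probes but AK017289, whose DBA/1 values range from 5.57 to 6.10.

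In brainstem tissue, more RNA per cell and more cells that hold the RNA cannot be told apart. No DBA/1 value lay below a C57BL/6 value for 7 of the 9 probes, against 4.48% of the tested probes with all DBA/1 values above all C57BL/6 values. The exceptions were the coding H2-D1 probe and H2-L. With the outlier spots kept, or in the authors' table, no probe of the 9 overlapped. The rule chose the probes on this contrast, so nothing is read from the count.

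Class I and class II could be compared only as a single class II probe beside 7 class I probes. The class I differences ran from 1.05 to 2.06 with a median of 1.34, and H2-DMa at 1.104 fell inside that range. The SD among the DBA/1 mice was 0.71 to 1.39 for the class I probes and 0.46 for H2-DMa, below all 7. Among the C57BL/6 mice it was 0.17 to 0.64 and 0.23. H2-DMa had the direction of the class I probes, which the choice of the probes fixed in advance. It also had replicates 3 and 4 above 1 and 2, and a smaller spread among the DBA/1 mice. Under normexp it lost that order, with replicate 1 above replicate 4. Whether class II genes in general did so is not given by 1 gene.

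The 5 coding probes differed between the strains by 1.05 to 1.51, with a median of 1.33, and the 4 noncoding probes by 1.29 to 2.52, with a median of 1.89. The ranges overlapped. Within class I alone the medians were 1.34 over 4 coding and 1.71 over 3 noncoding probes. At H2-D1, a coding and a noncoding probe read the same gene on the same strand, with differences of 1.34 and 1.71. Both were read in the same mice, so their standard errors do not measure the gap between the probes, which was not tested. The strains did not overlap for 3 of 5 coding and 4 of 4 noncoding probes.

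**Figure D2:**
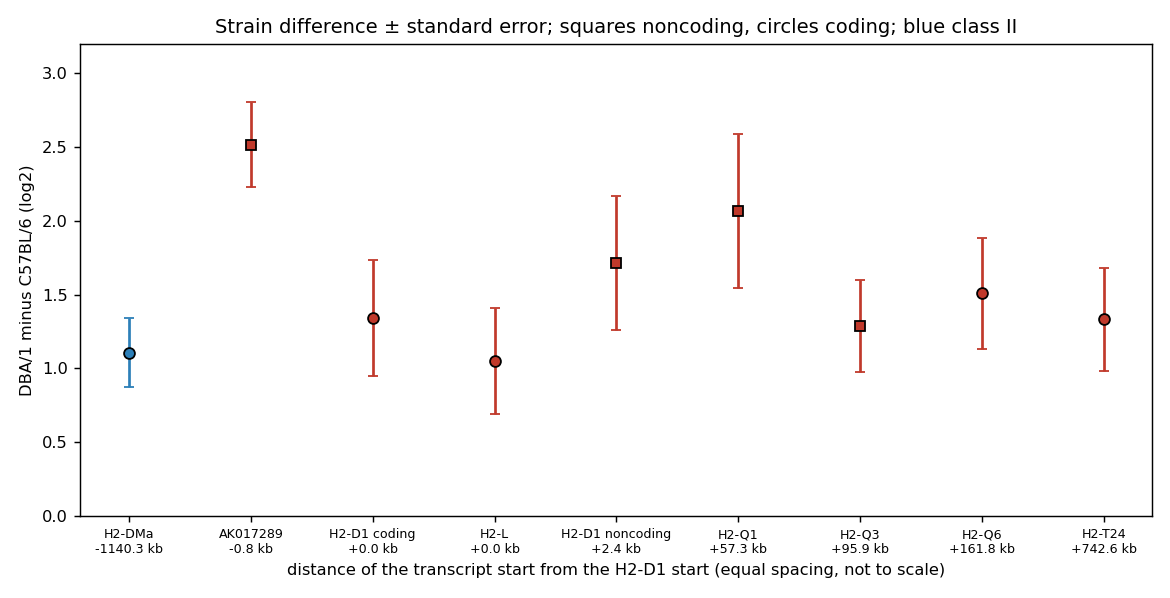
Difference between strains (DBA/1 minus C57BL/6, log2, vertical axis) ± standard error for the 9 probes in order of their distance from the H2-D1 start, with circles for coding and squares for noncoding probes and blue for class II. H2-DMa, at -1140.3 kb, lies at 1.104, and AK017289, beside the H2-D1 start, at 2.52.

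Within the DBA/1 strain most MHC probes moved together. DBA/1 replicates 3 and 4 lay above replicates 1 and 2 for 8 of the 9 probes, with only the measured mice compared for H2-L and H2-Q6. Of 32819 tested probes, 17.8% had that order. The MHC genes were chosen in part for their spread among mice, and the order was known from earlier results of these data. Nothing is therefore read from the count. DBA/1 replicate 3 was the highest DBA/1 mouse for 6 probes and replicate 4 for 3, and replicate 2 was the lowest for 8 and replicate 1 for 1. Before normalization, replicate 4 read higher than replicate 3 for every MHC probe. The array of replicate 3 was the dimmest, with a 75th percentile of 50.3 units. The lone exception to replicates 3 and 4 above 1 and 2 was AK017289, with replicate 4 above 1, 3 and 2. The median deviation from the strain mean over the measured probes was -0.58 in DBA/1 replicate 1, -0.76 in replicate 2, 0.78 in replicate 3 and 0.60 in replicate 4. Over all tested probes the median deviations of these mice lay between -0.08 and 0.07.

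Among the C57BL/6 mice the median deviations were smaller. C57BL/6 replicate 2 was the highest of its strain for 5 of the 9 probes and lay above the strain mean for 8 of them, with a median deviation of 0.43, and the other 3 mice had medians of -0.12 to -0.07. The coding and noncoding H2-D1 probes, H2-L, H2-Q3 and H2-Q6 had replicate 2 on top. For H2-Q1 and H2-DMa it was replicate 3, for H2-T24 replicate 4 and for AK017289 replicate 1.

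**Figure D3:**
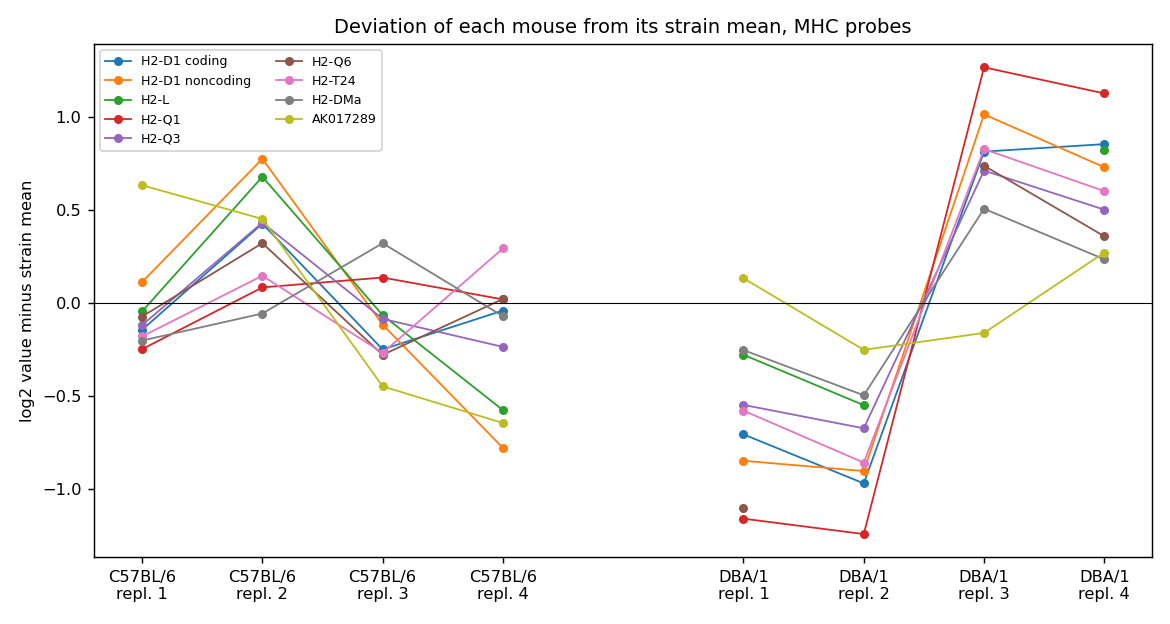
Log2 value of each mouse minus the mean of its strain (vertical axis) for the 9 probes, with a line for each probe and the 4 C57BL/6 mice to the left of the 4 DBA/1 mice. The lines of DBA/1 replicates 3 and 4 reach 1.27 above the mean, and AK017289 stays between -0.25 and 0.27 in the DBA/1 mice.

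A single component summarized this. Over the 7 probes with a value on all arrays, the largest principal component of the strain-centered values held 85.4% of the variance within strains. Its scores were -1.78, -2.17, 2.16 and 1.79 in DBA/1 replicates 1 to 4 and -0.25, 0.81, -0.17 and -0.39 in C57BL/6 replicates 1 to 4. With the outlier spots kept and 9 probes it held 87.6%. These shares describe probes chosen in part for their spread, so nothing is read from them. The largest component over 31872 tested probes was found separately and held 33.3%. A share over only 7 probes tends to be larger for that reason alone, so the shares are not set against each other. The scores over the 31872 probes rose with the column on the slide, which follows the replicate number, in both strains. They ran from -64.2 to 46.8 in DBA/1 and from -28.4 to 27.1 in C57BL/6 mice. The MHC probes thus followed the slide column in the DBA/1 row only as far as columns 3 and 4 were above 1 and 2, and in the C57BL/6 row the 4 scores did not rise with it. The part of the slide column in the order of the DBA/1 mice was not tested.

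The spread itself was larger in the DBA/1 mice for 8 of the 9 probes. The SD ratio of DBA/1 to C57BL/6 mice was 8.10 for H2-Q1, 3.89 for H2-Q6, 3.26 for the coding H2-D1 probe, 3.16 for H2-T24, 2.39 for H2-Q3 and 2.02 for H2-DMa, which makes 6 of 9 probes with a ratio of 2 or more, against 22.4% of tested probes. It was 1.58 for the noncoding H2-D1 probe, 1.41 for H2-L and 0.38 for AK017289. The median ratio was 2.39 over the 9 probes, 1.23 over all tested probes and 1.12 over the 350 probes called higher in DBA/1 mice. An SD of 0.5 or more among the DBA/1 mice was seen in 7 of 9 MHC probes and in 19.0% of tested probes. The MHC genes were chosen in part for their spread among mice, so nothing is read from these counts and ratios. The scanner's error of a single spot was between 9.32% and 26.5% of its intensity, and 10.2% at most for the 2 H2-D1 probes.

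**Figure D4:**
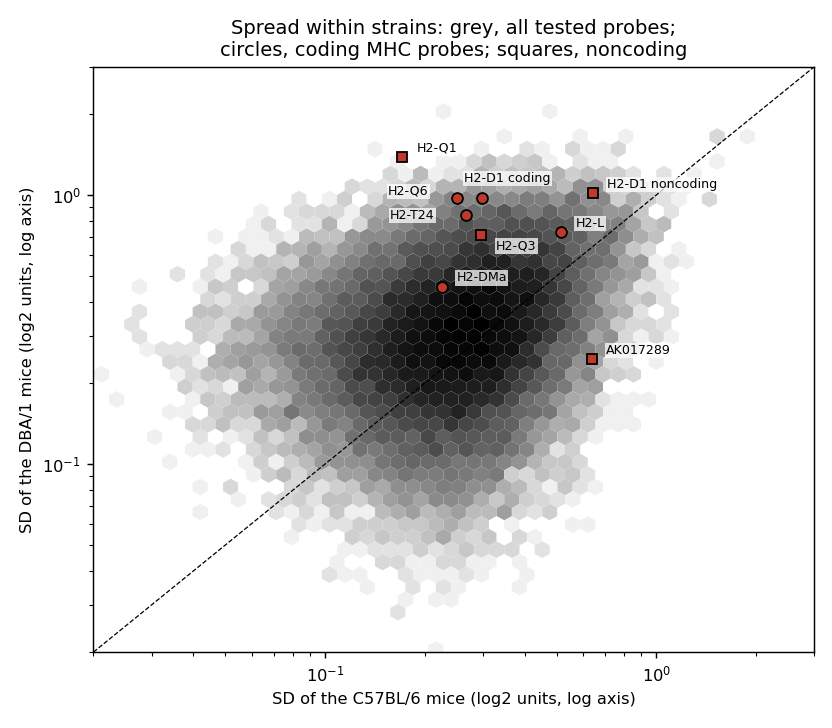
SD among the DBA/1 mice (vertical axis, log2 units on a log axis) against SD among the C57BL/6 mice (horizontal axis, same units) for the tested probes in grey, darker with more probes, and for the 9 MHC probes as red circles (coding) and squares (noncoding). The dashed line marks equal SDs, and AK017289 is the MHC probe below it.

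The probes nearest to coding H2-D1 in their strain-centered values, measured by the root mean square difference over the 8 mice, were ranked among 31871 tested probes, where the median difference was 0.67 on the log2 scale. H2-T24 ranked 6 with a difference of 0.19 and H2-Q3 ranked 8 with 0.20. The noncoding H2-D1 probe ranked 79 at 0.32, H2-Q1 82 at 0.32, H2-DMa 551 at 0.43 and AK017289 15221 at 0.66. AK017289 thus stood at the median of all probes, while the other MHC probes stood near the top. H2-L and H2-Q6 lacked a value and were not ranked. Spread among mice was part of the choice of the MHC probes, so nothing is read from their ranks.

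Of the probes with a name outside the MHC genes described, the 6 nearest were Trim34a, a tripartite motif protein, at 0.21, Gvin1, a very large GTPase, at 0.26, the lncRNA AK045786 at 0.27, a noncoding Xaf1 transcript at 0.30, Tlr12, a toll-like receptor, at 0.31 and the noncoding Gm8979 at 0.31. All 6 were lower in DBA/1 mice, the direction opposite to that of the MHC probes. The log2 differences were -2.01 to -1.67 for the 4 that were well above background on all 8 arrays. AK045786 and the noncoding Xaf1 transcript were so on only 1 of the 4 DBA/1 arrays, and their order among the DBA/1 mice rests on values near background. Trim34a gave 6.06, 6.31, 7.45 and 7.73 in DBA/1 replicates 1 to 4 and 8.56, 8.77, 8.19 and 8.71 in C57BL/6 replicates 1 to 4. Its DBA/1 replicates 3 and 4 were high against 1 and 2, as for H2-D1, though all 4 lay below the C57BL/6 mice. The 6 probes were chosen for nearness to H2-D1, so such an order follows from the choice. Names reach only 1168 of the ranked probes, all listed by the study for their difference between strains. Of the 1194 named probes tested, 312 were called higher in DBA/1 mice.

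**Figure D5:**
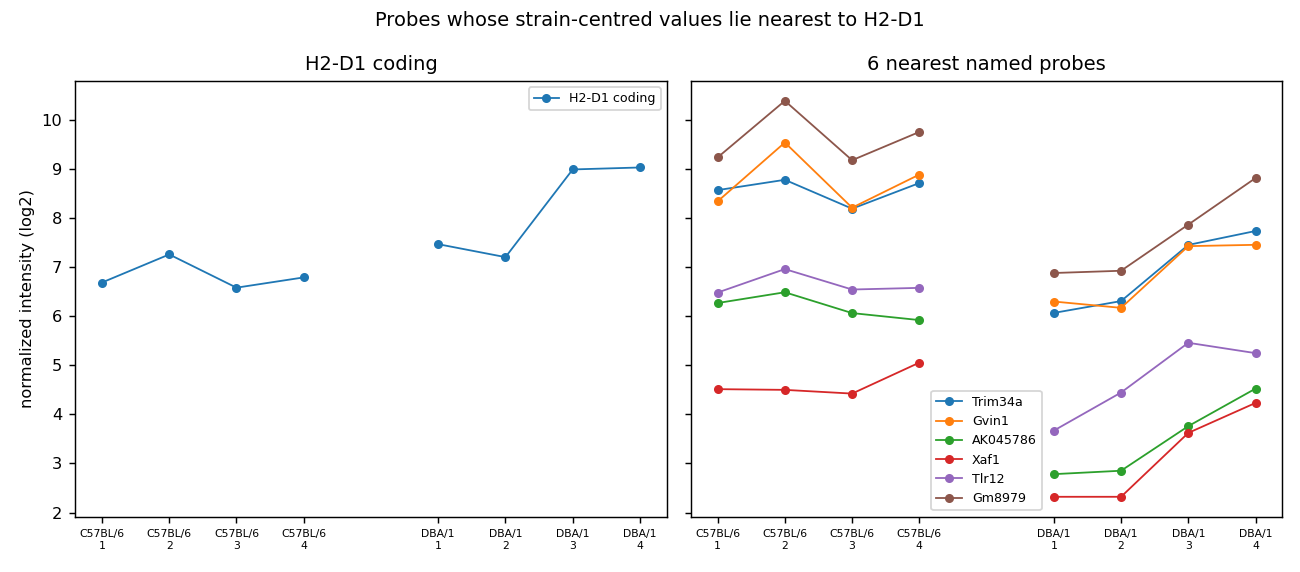
Normalized intensity (log2, vertical axis) of the coding H2-D1 probe (left panel) and of the 6 nearest named probes (right panel) in the 4 C57BL/6 and the 4 DBA/1 mice, with a line for each probe. H2-D1 is higher in DBA/1 replicates 3 and 4, at 8.98 and 9.02. The 6 probes, lower in DBA/1 mice, also have DBA/1 replicates 3 and 4 on top, which follows from their choice by nearness.

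Other genes of antigen presentation could be counted only where the study's lists name a probe. Of 41 genes of class I presentation, 7 had a named tested probe, and all 8 of their probes were called higher in DBA/1 mice. These were 7 of the 9 probes described here, chosen for that call, and H2-Bl, whose noncoding transcript was 4.07 higher. The study named probes because the strains differ in them, and 312 of the 1194 named probes were called higher, so nothing is read from the count. In H2-Bl the DBA/1 mice gave 11.38, 11.06, 11.79 and 10.96, without the low and high pairs of H2-D1. The noncoding Gm10499 gave 6.61, 6.07, 5.596 and 5.79 in the DBA/1 mice, also without such pairs, and was well above background on none of the C57BL/6 arrays. Of 14 genes of class II presentation, H2-DMa alone was named.

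Of 30 interferon response genes, 3 were named, by 4 probes, of which 1 was higher and 3 were lower in DBA/1 mice. The coding Xaf1 probe, for a pro-apoptotic protein, gave 9.26, 9.52, 12.30 and 11.60 in the DBA/1 mice, Irgm2, an immunity-related GTPase, gave 3.99, 4.63, 5.86 and 7.03, and Ifi204, a DNA sensor, gave the floor of 2.32, then 3.55, 4.89 and 5.23. The noncoding Xaf1 probe lay at the floor in replicates 1 and 2 and at 3.62 and 4.23 in replicates 3 and 4. DBA/1 replicates 3 and 4 were thus above 1 and 2 in all 4 probes, as in most MHC probes, but the full order differed. Irgm2 and Ifi204 rose with the replicate number, which follows the slide column. Replicate 4 was also highest in noncoding Xaf1, and replicate 1 was below replicate 2 in coding Xaf1. The noncoding Xaf1 probe was among the named probes nearest to H2-D1, so its order follows from that choice. The background for replicates 3 and 4 above 1 and 2 is the 17.8% given above. The probes were named because the strains differ in them, so nothing is read from the count.

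Markers of other cell types had few named probes. For T and NK cells, 3 of 9 were named, and their summed linear level was 40.6 to 65.4 in DBA/1 and 59.7 to 93.6 in C57BL/6 mice. Gzmb, a granule protease of killer cells, gave 3.91, 4.24, 4.72 and 5.53 in the DBA/1 mice. Zap70, a kinase of the T cell receptor, gave 4.10, 3.91, 4.57 and 3.82, and Klra7, an NK cell receptor, gave 3.17 and 2.75 in replicates 1 and 2 and the floor in replicates 3 and 4. Gzmb had replicates 3 and 4 above 1 and 2, as most MHC probes did, but with replicate 4 highest and replicate 1 lowest. In Zap70 and Klra7 replicates 3 and 4 were not both above 1 and 2. Between the strains the markers went both ways, with Zap70 called higher and Gzmb and Klra7 called lower in DBA/1 mice. Zap70 was well above background on none of the C57BL/6 arrays and Klra7 on none of the DBA/1 arrays. The part of such cells in the MHC values was not tested. For microglia, Fcrls alone was named of 12, at the floor in all 4 DBA/1 mice and at 5.01 to 5.45 in the C57BL/6 mice. No marker of the 7 for endothelium, 4 for B cells or 4 for choroid plexus was named. Of 9 markers of brainstem tissue, Tph2, the serotonin synthesis enzyme of the raphe neurons, was named and was well above background in all 8 mice. It gave 11.60, 11.45, 11.38 and 11.11 in the DBA/1 mice and 9.40, 10.73, 9.53 and 9.38 in the C57BL/6 mice. Tph2 was itself called higher in DBA/1 mice, by 1.63, the direction of the MHC probes, but its DBA/1 mice had another order. The part of tissue makeup in the strain difference of the MHC probes was not tested.

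Promoter sequences were at hand for 3 of the genes, H2-D1, H2-Q6 and H2-DMa. The H2-D1 and H2-Q6 sequences are shown because these genes had the same high DBA/1 mice. They are the 250 bases before the RefSeq start on GRCm38.p6, plus strand, at chr17:35262844-35263093 and chr17:35424600-35424849. This is reference sequence, and the promoters of DBA/1 mice were not examined. Capitals mark matches, on either strand, to the motifs GGGANTCCC (kappaB of enhancer A), GAANNGAAA (core of an interferon response element), TGACGC (CRE-like) and CCAAT, which were chosen after the promoters were read.
H2-D1: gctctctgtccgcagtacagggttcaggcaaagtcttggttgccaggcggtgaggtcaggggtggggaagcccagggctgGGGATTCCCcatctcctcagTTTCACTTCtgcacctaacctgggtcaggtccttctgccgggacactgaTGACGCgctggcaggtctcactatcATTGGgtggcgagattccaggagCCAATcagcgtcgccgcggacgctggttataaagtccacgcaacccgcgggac
H2-Q6: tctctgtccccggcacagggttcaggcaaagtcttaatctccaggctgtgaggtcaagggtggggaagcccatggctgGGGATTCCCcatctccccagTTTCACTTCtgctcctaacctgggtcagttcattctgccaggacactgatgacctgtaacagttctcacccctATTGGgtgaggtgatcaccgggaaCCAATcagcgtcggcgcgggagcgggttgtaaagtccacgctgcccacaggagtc
The H2-D1 and H2-Q6 sequences were identical at 208 of 253 aligned positions (82.2%), and H2-D1 and H2-DMa at 51.7%. None of the 4 motifs overlapped another in either sequence.

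GGGANTCCC began 170 bases before the start in H2-D1 and 172 bases in H2-Q6, and GAANNGAAA, on the minus strand, 150 and 152 bases. GGGANTCCC was found in 209 of 32851 promoter windows of 250 bases (0.636%), those of the class I genes H2-D1, H2-K1, H2-Q6 and H2-Q7 among them. GAANNGAAA was found in 6.31% of windows, TGACGC in 6.12% and CCAAT in 33.8%. H2-D1 had a TGACGC match and H2-Q6 had none, and both had 2 CCAAT matches. The H2-DMa window held none of the 4 motifs, which says only that these letters are not in it. This window was the leftmost H2-DMa entry. The gene begins at 34119693 and the probed transcript at 34122832, so the window may not be the promoter of that transcript. The same holds for its identity to H2-D1 given above. AK017289 covered all 250 bases of the H2-D1 window on the opposite strand, and it was the probe with the steadiest values among the DBA/1 mice.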

How the data were processed

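Brainstem RNA, depleted of rRNA and copied with random priming, was labeled with Cy3 and hybridized to an Agilent array with lncRNA and mRNA probes, one color and 1 mouse per array. The scanner files deposited by the authors hold each spot's intensity from Agilent Feature Extraction 11.0.1.1, named in the submitters' processing notes, after background subtraction and not normalized between arrays. The authors' table of quantile-normalized log2 values, with a floor of 5, was used as an alternative.

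Here, control spots and spots the scanner called outliers were removed, a floor of 5 was applied, and log2 intensities were quantile-normalized across arrays. Tests covered probes that 4 or more of the 8 arrays showed well above background and that had values in both strains. The strains were fitted as DBA/1 minus C57BL/6 with limma 3.58.1 in R 4.3.3, and other values were computed in pandas 2.3.3 and numpy 2.4.6 under Python 3.11.15 and drawn with matplotlib 3.10.9. The fit was tested on simulated data. No sample column was left unused.

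Names, positions and probe sequences came from the study's supplementary lists, which name 1194 tested probes, and promoters from RefSeq on GRCm38.p6. The members and lists were chosen with earlier results of these data known. Named were the 8 genes, the 6 named probes nearest to coding H2-D1, and H2 and list genes with a named probe. Alternatives tried were normexp, no floor, 75th percentile scaling, outlier spots kept, the authors' table, other filters and thresholds, the methods' t-test, a replicate block and each mouse left out. Replicate arrays differed by an SD of 0.39 to 0.67 on the log2 scale, so each was counted once. The labels do not state littermates, so the spread is that between these mice. The number of arrays limits the precision. The match of the probes to the DBA/1 alleles was not analysed here.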

Additional observations from a re-analysis of the deposited data

How the results depend on the processing

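The median difference of the 9 MHC probes, 1.34 on the log2 scale, was 1.03 under normexp with an offset of 50 and 1.38 in the authors' table, and 1.08 to 1.61 with each mouse left out. Every probe stayed higher in DBA/1 mice under all 14 alternatives to its value. Under normexp the noncoding median fell from 1.89 to 1.25, and H2-T24, H2-DMa and AK017289, the dim probes, differed by 0.46, 0.38 and 0.81. The offset raises all dim values on both sides, which shrinks their differences. With each mouse left out, the noncoding median was 1.52 to 2.25, the coding median 1.05 to 1.55, the SD ratio 2.05 to 3.19, the share on the largest component 80.7% to 91.7%, and 7 to 9 probes had strains apart. DBA/1 replicates 3 and 4 lay above 1 and 2 for 7 probes under normexp, where H2-DMa lost the order, against 8 otherwise. Leaving out a C57BL/6 mouse hardly bears on it. The 350 tested probes called higher in DBA/1 mice became 101 under normexp, 220 when only probes well above background on all 8 arrays were tested, 1144 at a fold of 1.5, and 308 to 394 with each mouse left out.

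With the replicate number as a block, 351 probes were called higher and the median difference of the MHC probes stayed at 1.34. The numbers were not taken as a pairing, because the labels give them no shared source and the deviations of the mice numbered 2 correlated at 0.02, not above 0.1. The other same-numbered mice correlated at 0.38, 0.13 and 0.35, and 3 of the 4 DBA/1 mice correlated best with their own number, as a hint from the data. The number follows the slide column.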
